A study of Homo sapiens with 8 samples.

Results

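ELF4 and 9 other genes of the ETS family of transcription factors, namely ELF1, ELF3, EHF, ETS1, ETS2, ETV1, ETV4, ETV5 and ELK1, were followed in HCT116 cells with and without hFGF19. The 10 genes were chosen by symbol, with earlier results of these data known, and all 10 were found among the 59641 genes of the deposited table. RNA sequencing of poly(A)-selected, paired-end libraries had been made from HCT116, an established human colorectal cancer line, by the labels. There were 4 control libraries without hFGF19 and 4 libraries from cells exposed for 72 hours to 100 ng/ml hFGF19, human fibroblast growth factor 19. The labels do not tell how long the controls were cultured. Nor do they say that replicates are separate cultures, and p-values therefore reflect a spread that may be technical. Pooled cells were sequenced, so fewer cells expressing a gene and less RNA of it per cell cannot be told apart.

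ETS factors share a DNA-binding domain that recognises a short motif with GGAA at its core, and they differ in their partners, in the cells that express them and in how signals reach them. FGF19 is a hormone that acts mainly through the receptor FGFR4 with the co-receptor KLB, and the kinase ERK lies downstream of that receptor. ERK phosphorylates ETS1, ETS2 and ELK1, and it relieves the repression of ETV1, ETV4 and ETV5 by the protein CIC. ELF3 and EHF are ETS factors of epithelia. ELF4 is best known from natural killer cells, T cells and antiviral responses, and it has been reported as an activator of FGFR4 and SRC in colorectal cancer. The series is about FGF19 acting by way of FGFR4, ERK and NF-kB in metastasis, and several of these factors are endpoints of ERK.

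Levels are given in FPKM, reads scaled to the length of the gene model and to the size of the library. The libraries held between 17121190 and 20752753 reads, worked out from the steps between low FPKM values, and a library had between 369 and 7618 reads on each of the 10 genes. Part of what marks the labelled tissue was absent, so HCT116 is the name the labels give, and the identity of the cells was not tested. Of 8 epithelial markers 5 had a mean of at least 1 FPKM, with a summed level of 2711 to 2914 FPKM in the controls and 2649 to 2841 with hFGF19, most of it from keratins. GRHL2 and CLDN7 were close to 0 (0.00652 and 0.0514 FPKM in the controls). None of 7 intestinal markers reached 1 FPKM, CDX1 was at 0 in every library, and CDX2 was at 0.0118 FPKM in the controls. The labels' RNA protocol speaks of adipose material, but 0 of 6 adipocyte markers reached 1 FPKM. Of the markers of other cells, 2 of 8 immune, 2 of 7 endothelial and 1 of 7 fibroblast genes reached it. Their summed levels in the controls were 2.76 to 3.56, 7.19 to 10.2 and 20.6 to 26.7 FPKM, in this order. With hFGF19 they were 3.01 to 4.58, 8.85 to 10.3 and 18.6 to 26.4 FPKM.

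All 10 genes were expressed, and none was called changed by hFGF19. Of 14100 genes averaging 1 FPKM or more, which were those tested, 15 were called at an adjusted p below 0.05, which is 0.106% of them (limma on log2(FPKM + 1), Benjamini-Hochberg). Of the 10 ETS genes 0 were called by limma, and 0 by voom on the recovered reads. At an unadjusted p below 0.05, limma and voom each had 1 of the 10, ETV4, where 4.23% of all genes tested had such a p by limma. With the replicate number as a block it was again 1 of the 10, against 6.88% of all genes. The log2 changes of the 10 lay between -0.11 (ELF3) and 0.16 (ETV4), with a median of 0.03, 7 genes higher and 3 lower. The median over all genes tested was -0.01, with 6158 genes higher and 7942 lower.

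**Figure D1:**
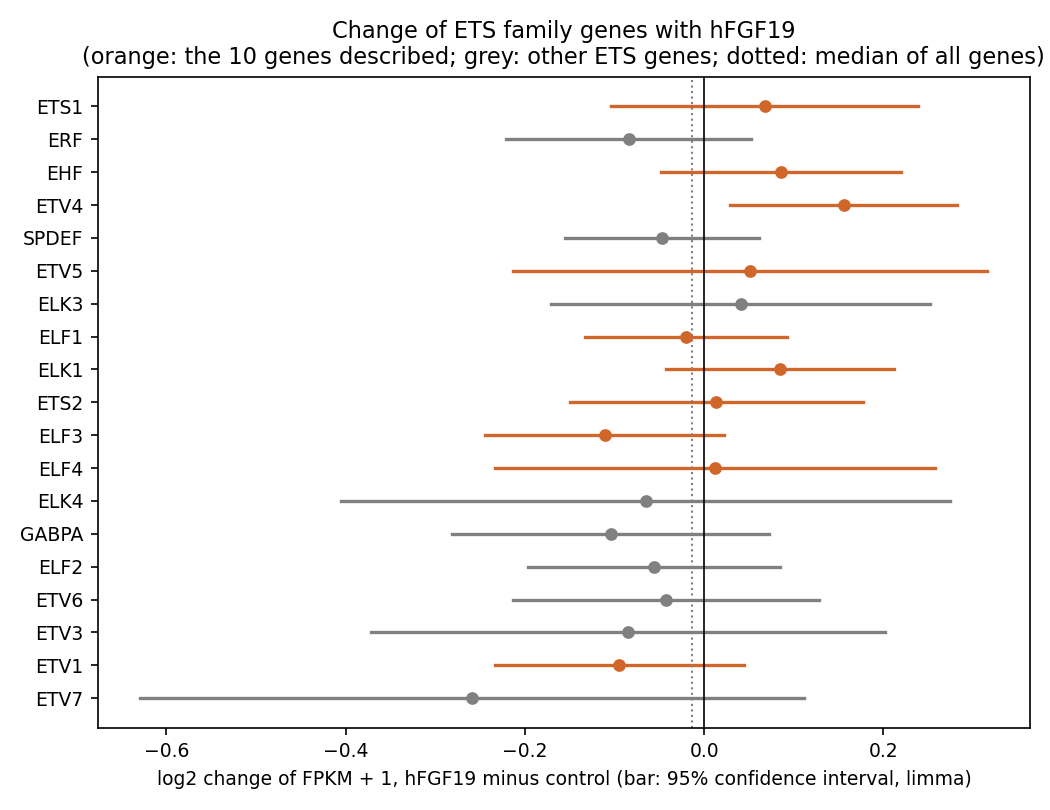
Log2 change of FPKM + 1 (hFGF19 minus control, 4 libraries each) with 95% confidence intervals by limma for the 19 ETS family genes that were tested, ordered by level. The intervals of the 10 genes described (orange) span 0 except that of ETV4 (0.03 to 0.28), whose adjusted p was 0.9998, and the dotted line marks the median of all genes.

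ELF4 (ENSG00000102034, chromosome X) had the same level in both groups within the spread between libraries. The controls 1 to 4 had 37.4, 28.97, 32.7 and 36.7 FPKM, and the hFGF19 libraries 1 to 4 had 37.8, 35.2, 27.3 and 37.0 FPKM. The highest library and the lowest one were both hFGF19 libraries, so the groups overlapped over the whole range of the controls. The means were 33.9 ± 3.89 FPKM in controls and 34.3 ± 4.78 with hFGF19 (SD, n = 4). The log2 change was 0.01 ± 0.111 (SE), with an adjusted p of 0.9998 by limma. Its 95% confidence interval ran from -14.9% to 19.5%, and changes within these limits are compatible with the data. The interval is not adjusted for the number of genes tested, so its limits are not the smallest changes that would have been called. Taken by replicate number, ELF4 had log2 changes of 0.01, 0.27, -0.25 and 0.01. The sign of the overall change turned with scaling to TPM.

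ELF4 was among the more variable of the 10 between libraries of a group. The 4 controls varied by 11.5% of their mean and the 4 hFGF19 libraries by 13.9%, whereas counting error alone at these read numbers is 2.23%. Among the 10, ETV5 varied more in the controls (16.1%) and ELF1 by 3.25%. The standard error of the log2 change, 0.111 for ELF4, had a median of 0.0917 over all genes tested. The lowest ELF4 libraries were hFGF19 replicate 3 and control replicate 2.

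The start region of ELF4 is shown because it is the gene that the set is built around and because GC boxes, which the factor SP1 binds, are a usual element of such regions. RefSeq promoters (windows around the start of transcription, GRCh38.p14) were found for 7 of the 10 genes, and 3 starts were listed for ELF4. The one with the most GC boxes lies at chrX:130110448-130110747 on the minus strand and is 76% G or C. Capitals mark the GC box GGGCGG on either strand.
ELF4: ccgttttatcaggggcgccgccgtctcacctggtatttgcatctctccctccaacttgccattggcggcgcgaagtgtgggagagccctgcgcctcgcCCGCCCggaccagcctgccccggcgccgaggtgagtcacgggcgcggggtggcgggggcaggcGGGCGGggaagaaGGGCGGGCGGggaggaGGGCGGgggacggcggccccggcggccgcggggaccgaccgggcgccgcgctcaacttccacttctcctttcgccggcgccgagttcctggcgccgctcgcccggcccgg
This window holds 5 GC boxes, of which 2 share their GG, and 44.9% of 34796 promoters of this length hold at least 1. The other starts of ELF4 hold 0 and 1. The longer ETS site CCGGAAGT, searched on both strands, was not in any of the 18 listed start regions of the 7 genes, and 4.13% of all promoters hold it. SP1 mRNA averaged 48.8 ± 1.70 FPKM without and 48.3 ± 2.36 with hFGF19, a log2 change of -0.02 ± 0.0541.

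ELF1 (ENSG00000120690, chromosome 13), the closest relative of ELF4 among the 10 and a factor of blood cell genes, had the smallest standard error of the 10. Its libraries lay between 43.1 and 47.3 FPKM in all, with means of 46.0 ± 1.49 FPKM in controls and 45.3 ± 1.61 with hFGF19. The log2 change was -0.02 ± 0.0510, with a 95% confidence interval of -8.81% to 6.65%.

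The 3 genes of the PEA3 group, ETV1, ETV4 and ETV5, are induced by ERK through CIC. They were read here as a set of ERK outputs, in mRNA and at a single time of exposure only. ETV4 (ENSG00000175832, chromosome 17) had the largest change of the 10. Its controls 1 to 4 were at 63.4, 71.2, 70.2 and 66.5 FPKM and its hFGF19 libraries at 72.4, 74.1, 75.2 and 80.9 FPKM. Every hFGF19 library stood above every control. Such separation in either direction was found for 3.12% of the genes tested, and with hFGF19 higher for 1.48%. The means were 67.8 ± 3.55 and 75.6 ± 3.69 FPKM. The log2 change was 0.16 ± 0.0572, a mean ratio of 1.12, with an unadjusted p of 0.0205 and an adjusted p of 0.9998 by limma. In pairs of the same replicate number it was 0.19, 0.06, 0.10 and 0.28. ETV4 thus did not pass, also with the replicate number as a block (adjusted p = 0.618, limma).

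ETV5 (ENSG00000244405, chromosome 3) differed more between replicate numbers than between the groups. The controls 1 to 4 had 61.3, 46.1, 51.5 and 66.0 FPKM, and the hFGF19 libraries 64.3, 51.8, 51.4 and 64.7 FPKM. Libraries with numbers 1 and 4 were the high ones in both groups, and those with 2 and 3 the low ones. The means were 56.2 ± 9.04 and 58.1 ± 7.45 FPKM, and the log2 change was 0.05 ± 0.120. With the block its standard error was 0.0531, and the 95% confidence interval narrowed from -0.21 to 0.32 down to -0.07 to 0.17. It was not called in either fit (adjusted p = 0.9998 and 0.919, limma).

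ETV1 (ENSG00000006468, chromosome 7) was the lowest of the 10 and the tightest among its controls. These varied by 1.94% of their mean, less than the 4.76% that counting error alone gives at its read numbers. The tightness therefore cannot be read as a trait of the gene. The controls lay between 10.2 and 10.7 FPKM and the hFGF19 libraries between 9.20 and 10.4 FPKM, with means of 10.5 ± 0.203 and 9.74 ± 0.524. It was lower with hFGF19 in 4 of 4 pairs, as were 8.5% of all genes tested, and the groups overlapped. The log2 change was -0.09 ± 0.0629 (adjusted p = 0.9998, limma). The 3 genes of this group therefore had changes of different sign, none called.

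One of the 6 listed start regions of ETV1 holds the octamer that CIC binds, TGAATGAA or TGAATGGA, and is shown for that reason. It lies at chr7:13991376-13991675 on the minus strand (GRCh38.p14, RefSeq), and capitals mark the octamer.
ETV1: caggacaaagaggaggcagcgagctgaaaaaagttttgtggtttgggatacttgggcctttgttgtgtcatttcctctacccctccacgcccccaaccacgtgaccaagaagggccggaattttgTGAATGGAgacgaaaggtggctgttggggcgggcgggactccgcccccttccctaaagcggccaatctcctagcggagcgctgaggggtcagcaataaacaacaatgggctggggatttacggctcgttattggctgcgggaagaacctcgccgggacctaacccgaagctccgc
The match begins 125 bases before the start, does not overlap a GC box, and is of a kind that 2.61% of all promoters hold on either strand. That share is for a single promoter, whereas 6 start regions of ETV1, some overlapping, were searched. ETV4 and ETV5 are not shown. CIC mRNA was at 86.3 ± 8.17 and 85.9 ± 10.3 FPKM, with a log2 change of -0.01 ± 0.0959. Of 8 other genes that CIC represses, among them the ERK phosphatase genes DUSP4 and DUSP6 and the SPRY and SPRED inhibitors, 0 were called, 5 were higher and 3 lower, with a median of 0.03. DUSP6 was at 8.68 ± 0.687 and 8.87 ± 0.618 FPKM, and SPRY4 at 10.4 ± 0.941 and 11.1 ± 1.11 FPKM.

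ETS1 and ETS2 carry a docking domain for ERK, and ETS1 was the highest of the 10. The controls 1 to 4 of ETS1 (ENSG00000134954, chromosome 11) had 155, 141, 134 and 160 FPKM, and the hFGF19 libraries 167, 147, 139 and 165 FPKM. Each hFGF19 library lay slightly above the control of the same number, by log2 0.10, 0.06, 0.06 and 0.05. In both groups numbers 1 and 4 stood above numbers 2 and 3 by more than that. Being higher in 4 of 4 pairs was shared by 6.66% of all genes tested. The log2 change was 0.07 ± 0.0774, or ± 0.0440 with the block, and it was not called in either fit (adjusted p = 0.9998 and 0.819, limma). ETS2 (ENSG00000157557, chromosome 21) lay between 33.7 and 40.9 FPKM over the 8 libraries. Its means were 36.5 ± 2.66 and 36.9 ± 3.12 FPKM, its log2 change was 0.01 ± 0.0738, and it was higher in 2 of 4 pairs.

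ELF3 (ENSG00000163435, chromosome 1) and EHF (ENSG00000135373, chromosome 11), the epithelial factors, differed in the sign of their changes. ELF3 had 33.5, 36.5, 38.5 and 35.3 FPKM in controls 1 to 4 and 31.8, 31.9, 34.3 and 34.8 FPKM with hFGF19. It too was lower in 4 of 4 pairs (8.5% of all genes tested), and the groups overlapped, since hFGF19 replicates 3 and 4 stood above control 1. Its log2 change was -0.11 ± 0.0603 (unadjusted p = 0.0944, adjusted p = 0.9998, limma). EHF lay between 85.1 and 92.7 FPKM in controls and between 86.7 and 102 FPKM with hFGF19, with a log2 change of 0.09 ± 0.0605, higher in 3 of 4 pairs.

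ELK1 (ENSG00000126767, chromosome X), which binds serum response elements together with SRF once ERK has phosphorylated it, averaged 40.4 ± 1.72 FPKM without and 42.9 ± 2.27 with hFGF19. Its libraries lay between 39.0 and 42.6 FPKM in controls and between 40.1 and 45.5 FPKM with hFGF19, so the groups overlapped. The log2 change was 0.08, with a 95% confidence interval of -0.04 to 0.21. SRF was at 16.3 ± 1.99 and 16.3 ± 1.88 FPKM. Of 11 serum response genes 9 were tested and 0 called, 4 higher and 5 lower, with a median of -0.05. The early genes EGR1 and FOS were at 4.05 ± 0.839 and 5.48 ± 1.29 FPKM in controls and at 3.76 ± 0.721 and 6.12 ± 1.01 FPKM with hFGF19.

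**Figure D2:**
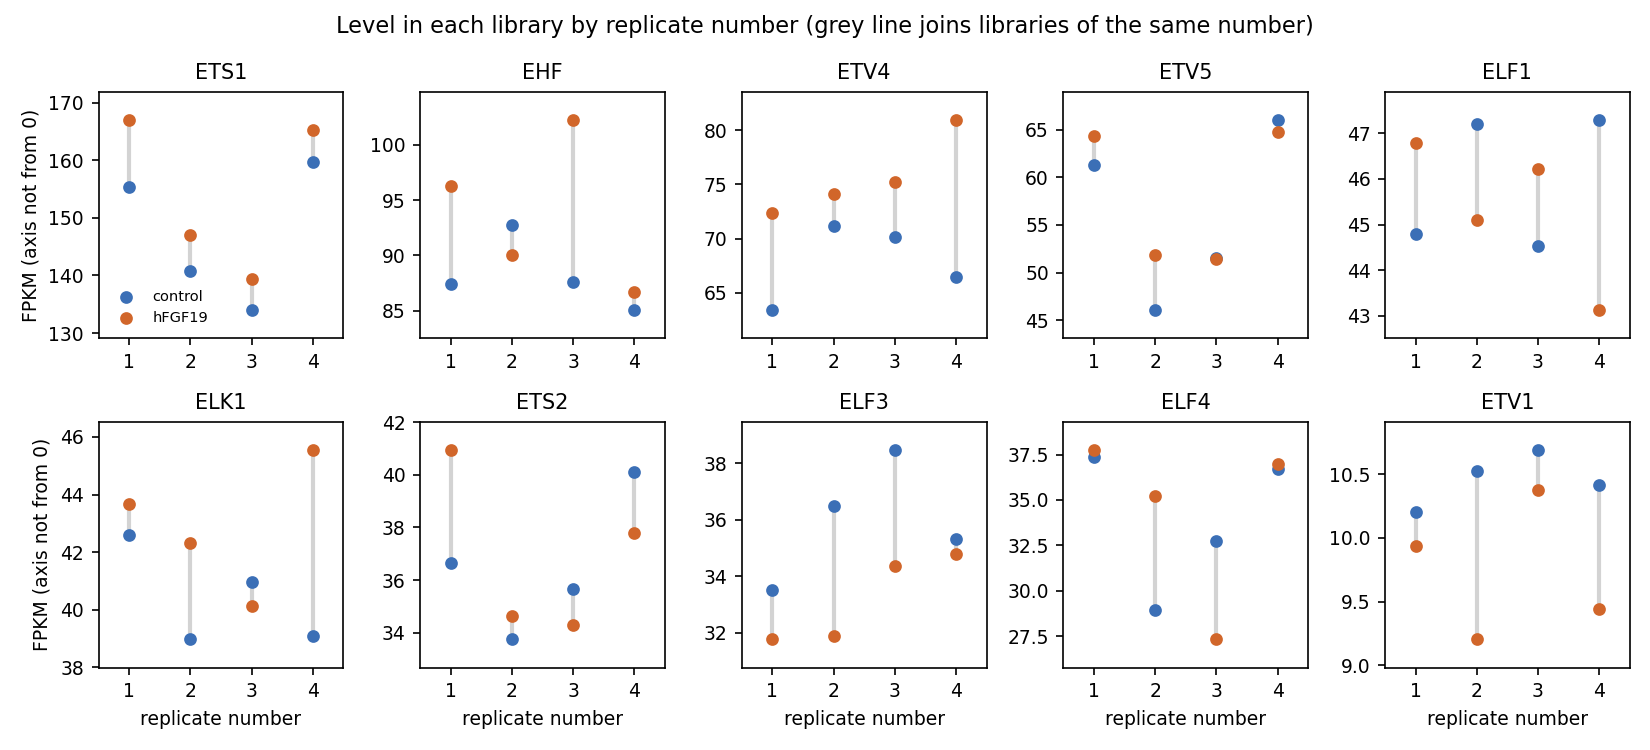
FPKM of each of the 10 genes in the 4 control (blue) and 4 hFGF19 (orange) libraries by replicate number, with a grey line joining libraries of the same number and vertical axes that do not start at 0. ETS1 and ETV5 were high in numbers 1 and 4 and low in numbers 2 and 3 in both groups, and for ETV4 every hFGF19 library (72.4 to 80.9 FPKM) stood above every control (63.4 to 71.2 FPKM).

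How far libraries of the same number deviated alike within groups differed among the 10. The measure was the part of the squared deviations that lay in the means of same-numbered libraries. With 2 libraries to a number, it is 50% on average where they are unrelated, and less where they deviate in opposite directions. It was 99.0% for ETS1, 95.7% for ETV5, 75.6% for ETS2, 73.5% for ELF3 and 67.5% for ELF4. For ETV1, ETV4 and EHF it was 56.8%, 52.8% and 50.0%, for ELK1 39.6%, and for ELF1 7.75%. The values of ETV1, ETV4 and EHF were thus near that of unrelated libraries, and those of ELK1 and ELF1 below it. The median over all genes tested was 63.2%, with quartiles of 40.3% and 80.5%, so ETS1 and ETV5 lay above the upper quartile and ELK1 and ELF1 below the lower one. The first principal component, 35.4% of the variance of all genes tested, likewise had numbers 1 and 4 on one side and numbers 2 and 3 on the other in both groups. What the number stands for is not given in the labels.

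The order of the levels depended on the gene length behind the FPKM values. As deposited, the controls ranked ETS1 first (147 ± 12.1 FPKM), then EHF (88.2 ± 3.22), ETV4, ETV5, ELF1, ELK1, ETS2, ELF3, ELF4 and last ETV1, and ETS1 was 14.1-fold above ETV1. The control values of neighbours overlapped between ETV4 and ETV5, ETV5 and ELF1, ELK1 and ETS2, ETS2 and ELF3, and ELF3 and ELF4, and they did not overlap at the other 4 steps. With hFGF19 ELF3 and ELF4 changed places, as neighbours whose values overlapped.

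The lengths implied by the FPKM steps were the mean over all annotated transcripts of a gene, short ones included. This mean, in GENCODE 29, was within 1 base of the implied length for 99.8% of the 13932 genes tested that could be compared. ETV5, with 14 annotated transcripts down to 187 bases, had been given 890 bases, although its longest coding transcript has 4111. ELF4 had been given 3149 bases against 4165, and EHF 1139 against 3150. Dividing the same reads by the longest coding transcript, a choice made after seeing the data, took ETV5 from the fourth place to the eighth, at 12.2 ± 1.96 FPKM in controls. It took ELF4 from the ninth place to the fifth, at 25.7 ± 2.94 FPKM, where it overlapped ELK1. ETS1 stayed first at 63.1 ± 5.17 FPKM and ETV1 last at 3.63 ± 0.0706 FPKM, and 4 of the 10 genes kept their place. Comparisons of a gene with itself between groups use the same length throughout.

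**Figure D3:**
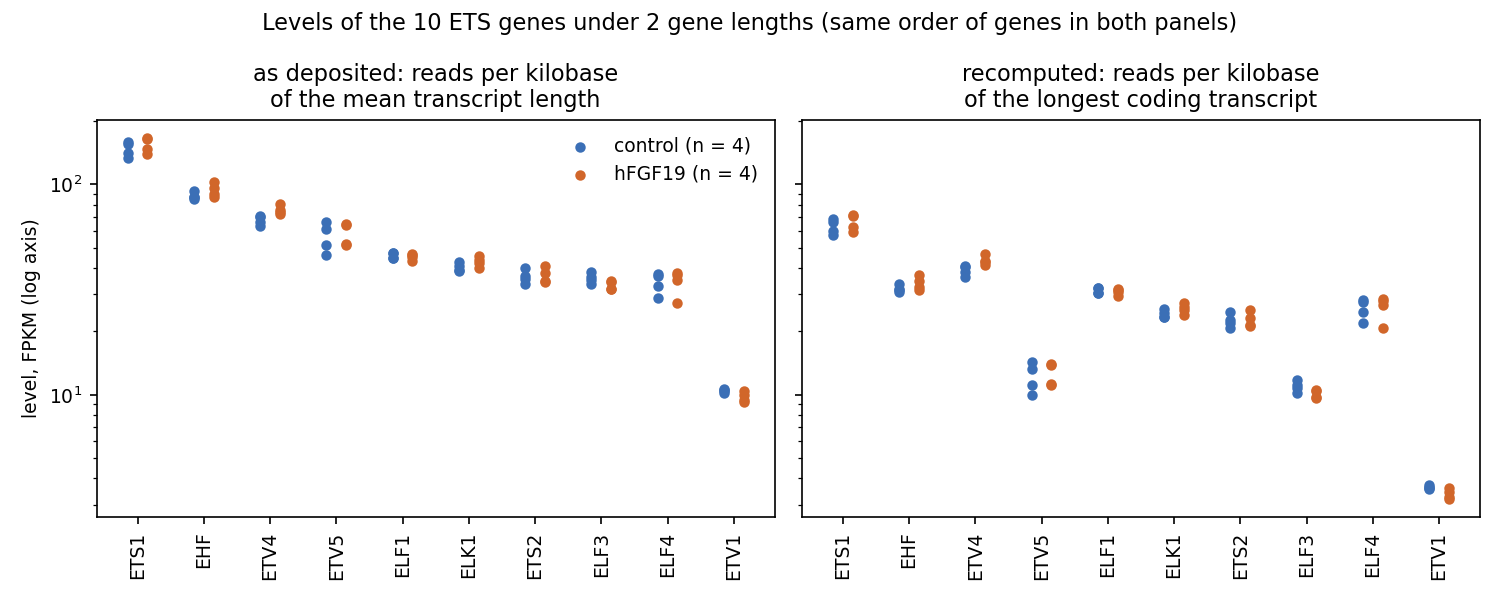
Levels of the 10 genes in the 4 control and 4 hFGF19 libraries on a log axis, as deposited (left) and with the same reads divided by the longest coding transcript (right), genes in the same order in both panels. ETV5 drops from 56.2 to 12.2 FPKM in the controls, whereas ELF4 goes from 33.9 to 25.7 FPKM and so passes several others.

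The reads could be assigned to these genes with little ambiguity between members. No window of 50 bases in the longest coding transcript of a member occurred in a transcript of another member. Shared windows with other genes were 21.2% for ELF3, mostly through its antisense gene ELF3-AS1 (0.674 ± 0.137 FPKM in controls) and the overlapping AL691482.3, and 2.86% for ETV5, through DGKG. They were 0.869% for ELK1, through the pseudogenes ELK2AP and ELK2BP, and 0.294% or less for the other 7. ETV4 overlaps DHX8 on the other strand, a gene averaging 33.6 ± 2.18 FPKM without and 33.6 ± 2.21 with hFGF19. The use of strand in counting is not stated, and for ELF3 and ETV4 reads of the other strand may be included. For ETV4 the windows shared with DHX8 were 0.294%. ELF1, ETS1 and ETV5 also overlap genes on the other strand (WBP4, MIR6090 and ETS1-AS1, and ETV5-AS1). These shared no window with their longest coding transcripts.

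By the deposited FPKM, the 10 genes made up most of the summed level of the ETS family. The shares and levels below rest on the deposited gene lengths and were not recomputed with the longest coding transcripts. Summed over all 28 ETS genes, the level came to 876 ± 27.96 FPKM in controls and 886 ± 30.7 with hFGF19, and the 10 held 64.3% ± 0.727 and 66.0% ± 1.08 of it. Of the other 18, 9 had a mean of at least 1 FPKM and 0 were called, with 1 higher and 8 lower and a median log2 change of -0.07. Of all genes tested, 6158 were higher and 7942 lower. The highest were the repressor ERF (105 ± 7.72 and 99.2 ± 3.72 FPKM) and the epithelial factor SPDEF (61.5 ± 1.49 and 59.5 ± 2.21 FPKM). ELK3, a relative of ELK1, was at 49.3 ± 5.90 and 50.6 ± 5.17 FPKM. ELK4, GABPA, ELF2, ETV6 and ETV3 had control means between 12.0 and 26.5 FPKM, and ETV7 was at 1.74 ± 0.565 and 1.28 ± 0.323 FPKM. The endothelial and blood factors ERG, FLI1, SPI1, SPIB and SPIC had at most 0.132 FPKM in any library, as had FEV, ELF5 and ETV3L, and ETV2 reached 0.983 FPKM.

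**Figure D4:**
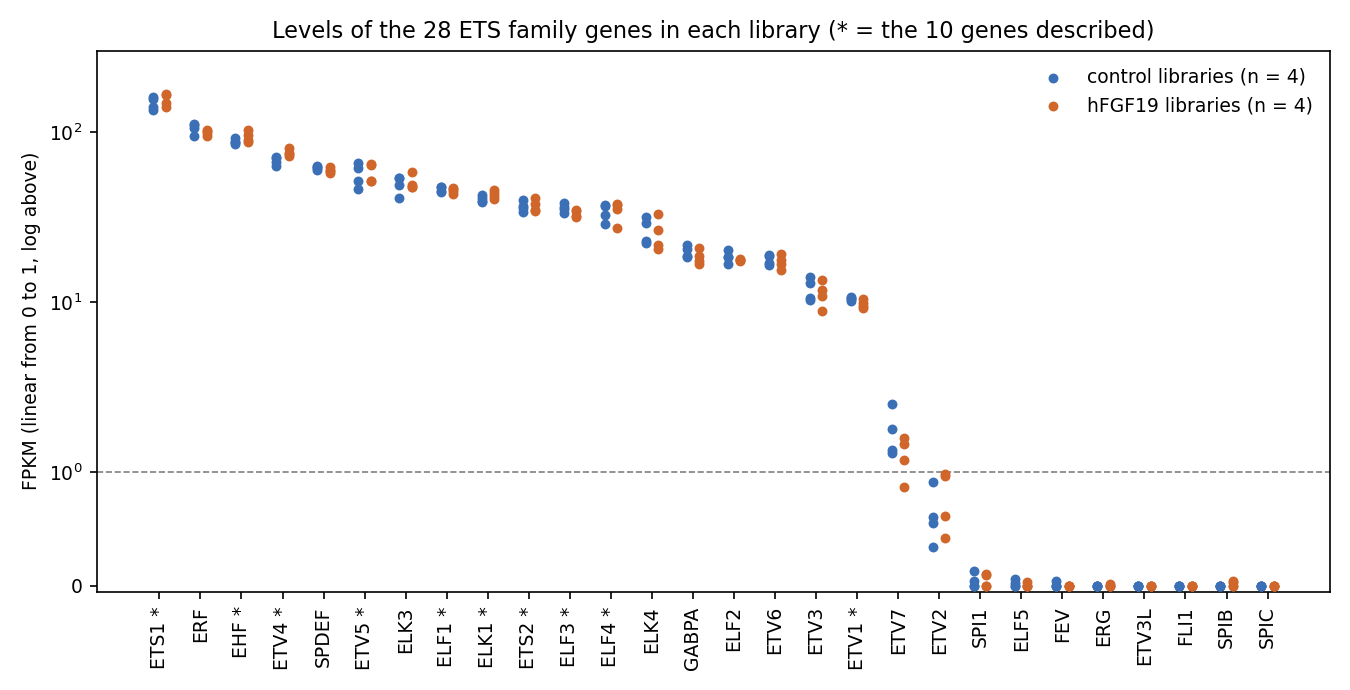
FPKM of all 28 ETS family genes in each library (linear from 0 to 1 FPKM, log above), ordered by control mean, with the 10 genes described marked by a star and a dashed line at 1 FPKM. All 10 stand above 9 FPKM in every library, and 9 other family genes lie below 1 FPKM in every library.

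Among genes around these factors, CXCL8, LCN2 and PTGS2 rose while FGFR4 and SRC were not called. Of 10 genes linked to ELF4 in earlier work, 7 were tested and 1 was called, CXCL8, a neutrophil chemokine that went from 414 ± 33.7 to 685 ± 31.9 FPKM (log2 change 0.73 ± 0.0658, adjusted p = 0.00199, limma). Of all genes tested 0.106% were called, but CXCL8 was known to have risen when the list was made. CSF2, a growth factor of granulocytes and macrophages, was at 3.06 ± 0.921 and 6.05 ± 0.114 FPKM, with an adjusted p of 0.0806, or 0.0359 with the block (limma). FGFR4 was at 51.4 ± 2.32 and 44.9 ± 5.51 FPKM, a log2 change of -0.20 ± 0.0825 (95% limits -0.38 and -0.01). Its unadjusted p was 0.0373, or 0.0139 with the block, and its adjusted p was 0.9998, or 0.610 with the block (limma). An unadjusted p below 0.05 by limma was found for 4.23% of all genes tested, or for 6.88% with the block. FGFR4 was lower in 4 of 4 pairs, as were 8.5% of all genes tested, and the groups overlapped. SRC was at 89.7 ± 9.75 and 95.2 ± 10.1 FPKM, a log2 change of 0.08 ± 0.0955 (adjusted p = 0.9998, limma). The median of the 7 was 0.08.

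Of 8 genes linked to ELF3 and EHF, 5 were tested and 2 were called, both higher, where 0.106% of all genes tested were called. LCN2, an iron-siderophore binding protein, went from 125 ± 11.3 to 206 ± 10.9 FPKM, and PTGS2, the inducible cyclooxygenase, from 15.04 ± 0.674 to 23.4 ± 1.24 FPKM (adjusted p = 0.00226 and 0.00230, limma). The other 3 were lower and not called, and the list's median was -0.04. CXCL8, LCN2 and PTGS2 were known to have risen when the lists were made, so their presence is not independent evidence about these factors. Of 9 protease genes linked to ETS1, ETS2 and ETV4, 5 were tested and 0 called, all with higher means and a median of 0.15. MMP7 had the largest change of these (2.94 ± 0.420 and 5.30 ± 0.951 FPKM, log2 change 0.67 ± 0.125, adjusted p = 0.153, limma), and was named after its values were seen. Of 18 partners and regulators, such as EP300, CREBBP and COP1, 17 were tested and 0 called, 5 higher and 12 lower, with a median of -0.05. For comparison with these lists, 6158 of all genes tested were higher and 7942 lower.

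**Figure D5:**
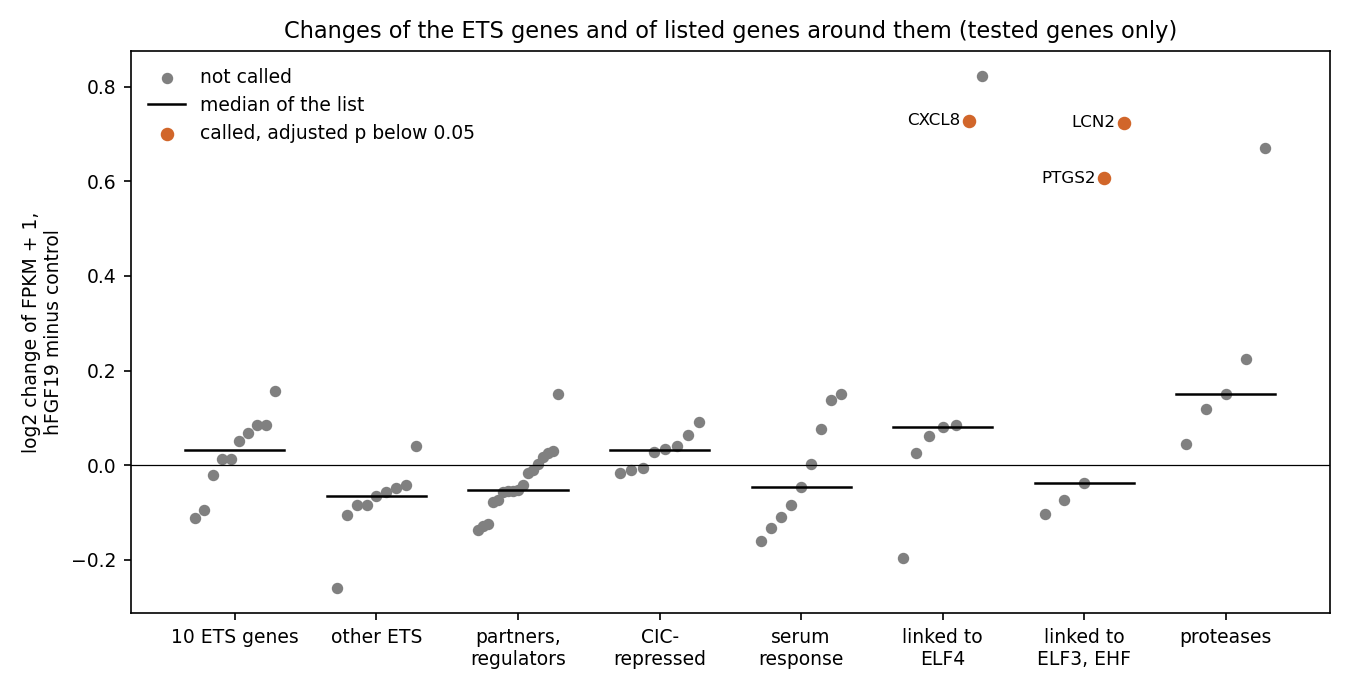
Log2 change of FPKM + 1 (hFGF19 minus control) of each tested gene of the 10 ETS genes and of 7 lists around them, with the median of each list as a line. The called genes, CXCL8, LCN2 and PTGS2, stand at 0.61 to 0.73, and the 10 ETS genes between -0.11 and 0.16.

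Across the 8 libraries ELF4 varied like many other genes. The closest by Pearson correlation of log2(FPKM + 1) were SF3A1, a splicing factor gene, at 0.992, BAHCC1 at 0.992, STIM1, a calcium sensor of the endoplasmic reticulum, at 0.991, RNF10 at 0.991 and DLG5 at 0.991, picked from 14100 genes and given as a description. Over all genes tested the quartiles of this correlation were -0.562 and 0.508, with a median of -0.0770. Of the other members, ETV5 (0.820), ETS1 (0.792), ETS2 (0.759) and ELK1 (0.620) lay above the upper quartile and EHF (-0.636) below the lower one. ETV4 (-0.205), ELF1 (-0.315), ELF3 (-0.420) and ETV1 (-0.474) lay between the quartiles. Of the 9 other genes fixed by name, CIC was at 0.978, SRF at 0.960, SRC at 0.950, EGR1 at 0.896, SPRY4 at 0.884, FOS at 0.611, FGFR4 at 0.577, DUSP6 at 0.159 and SP1 at -0.147. All of these values rest on the same 8 libraries, whose main axis of variation went with the replicate number.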

How the data were processed

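The authors deposited FPKM in 8 columns, which were matched to samples by title. The submitters' processing notes list HISAT2 2.0, StringTie 1.3.0 and hg19, and no source used here gives the strand setting or annotation release. Reads were worked out from the FPKM steps, and 99.996% of the values above 0 came out whole within 0.02 reads, adding to 99.97% of each library total. Counting error covers reads, which are not independent molecules.

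Values of log2(FPKM + 1) were compared between groups (limma 3.58.1, R 4.3.3, trended variance, two-sided) for 14100 genes averaging 1 FPKM or more. An adjusted p below 0.05 (Benjamini-Hochberg) was called. The scale understates changes of low genes. All 10 members passed the filter. The members and lists were chosen with earlier results of these data known. Named were the members, other ETS genes, called genes of the lists, 9 genes fixed by name, and the 5 genes most correlated with ELF4. Outside this rule, MMP7 and CSF2 were named after their values were seen, and markers, overlapping genes and examples of list members were named for description.

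The labels number the replicates 1 to 4 in both groups. Deviations from the group means of same-numbered libraries correlated at 0.30, 0.17, 0.17 and 0.11 across genes, each over 0.1, and the numbers were taken as pairs on that ground. Differently numbered libraries ranged from -0.448 to 0.436, and control 2 with hFGF19 3 (0.436) and control 4 with hFGF19 1 (0.412) exceeded every same-numbered pair, so the numbers are not the closest match. Alternatives were pseudocounts, filters, scalings, the block, voom and leaving out each library. Coordinates are RefSeq's in GRCh38.p14, and transcripts are GENCODE 29, not the hg19 of the notes.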

Additional observations from a re-analysis of the deposited data

Results flagged for a closer look

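Groups of 4 libraries were searched for a single library far from its 3 neighbours by Dixon's 95% criterion (gap over range). This found 3 of 72 groups, from 36 genes, where chance flags about 1 in 20 groups, or 3.6 here. None was among the 10 ETS genes described. ELK3 in hFGF19 replicate 1 reached 58.3 FPKM, against 47.7 to 48.7 FPKM in its 3 neighbours (ratio 0.907). SRC in hFGF19 replicate 3 was low at 80.1 FPKM, against 98.9 to 101 FPKM (ratio 0.892). PTGS2 in control replicate 4 was high at 16.05 FPKM, against 14.6 to 14.7 FPKM (ratio 0.938).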

How the results depend on the processing

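The count of 0 called ETS genes held under every alternative run, and ETV4 kept its positive sign in each. With the replicate block, the number of genes called went from 15 to 21, still with 0 of the 10. The block changed 1 call among the listed genes, that of CSF2, so that 4 in place of 3 were called. Leaving out single libraries gave 3 to 4 called listed genes. The log2 change of ELF4 was -0.00061 with scaling to TPM, and SRF, also not called, was at -0.0098. Leaving out 1 library put ELF4 between -0.059 and 0.11. The other changes that turned sign when 1 library was left out, none called, were ELF1 (-0.035 to 0.0029), ETS2 (-0.036 to 0.058), ETV5 (-0.038 to 0.13), ELK3 (-0.041 to 0.085), ELK4 (-0.19 to 0.026), ETV3 (-0.17 to 0.014), ETV6 (-0.093 to 0.0067), SRF (-0.079 to 0.077), CIC (-0.078 to 0.076), SP1 (-0.047 to 0.0084), DUSP6 (-0.012 to 0.071) and EGR1 (-0.17 to 0.0066). The causes were not tested. ETV4 had no unadjusted p below 0.05 without control replicate 1 or without hFGF19 replicate 4. The number of genes called in all went from 15 to 7 without control replicate 1, hFGF19 replicate 2 or hFGF19 replicate 4, to 8 without control replicate 3 and to 9 without hFGF19 replicate 1. The order of levels kept 4 of 10 places with the longest coding transcript as the length.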

Other observations

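ELK4, an ETS gene outside the 10, had the reverse pattern of ETS1 and ETV5 across replicate numbers. Its controls 1 to 4 were at 22.9, 31.5, 29.1 and 22.4 FPKM, and its hFGF19 libraries at 20.5, 26.6, 33.0 and 21.6 FPKM. Of the squared deviations within groups, 89.4% lay in the means of same-numbered libraries. Libraries with numbers 2 and 3 were the high ones in both groups. The log2 change with hFGF19 was -0.07, with a 95% confidence interval of -0.41 to 0.27 (adjusted p = 0.9998, limma).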
